A study of Homo sapiens with 2 samples.

Results

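The 37 genes of the human mitochondrial genome were examined by RNA sequencing in HGC-27, a cell line from a human gastric carcinoma. They were chosen as all rows of the deposited count table whose gene symbol begins with MT-, which gave 37 of 63677 genes: 13 mRNAs, 2 ribosomal RNAs and 22 tRNAs. The study compared 1 control culture, transfected with the empty plasmid pcDNA3.1, with 1 culture transfected with pcDNA3.1-lncPSCA, which carries the long non-coding RNA lncPSCA. Both received the transfection reagent INTERFERin and were collected 48 hours later. Each group is 1 library of 1 line, so no difference below has a replicate check and no p-value can be given.

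Human mitochondria hold a small circular genome that is transcribed on both strands into long precursor RNAs. The heavy-strand precursor carries both ribosomal RNAs, most tRNAs and all mRNAs but MT-ND6, and the light-strand precursor carries MT-ND6 and the remaining tRNAs. tRNA genes punctuate the precursor, and their excision releases the mRNAs and rRNAs, most of which then receive short poly(A) tails. The mRNAs encode core subunits of respiratory complexes I, III and IV and of ATP synthase, while the nucleus encodes the other subunits and every protein that copies, transcribes and processes the mitochondrial genome.

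Total counts were 21552098 for control and 23016646 for lncPSCA. No row bears the name lncPSCA, and the gene PSCA had 22 reads in control and 28699 in lncPSCA. Of 5 epithelial markers, only KRT8 (3.13 CPM in control, 2.47 CPM in lncPSCA) and CDH1 averaged at least 1 CPM (counts scaled to library depth), and of 6 gastric markers TFF1, TFF2, GKN1 and CLDN18 had no read in either library. The mesenchymal marker VIM stood at 2601 and 2594 CPM and the collagen gene COL1A1 at 1112 and 1042 CPM. Of the other mesenchymal markers, FN1 was 2.35-fold higher in lncPSCA (26.3 and 61.6 CPM) and CDH2 was near 0 (0.190 and 0.255 CPM). Of the other fibroblast markers, PDGFRB was 2.08-fold higher (2.80 and 5.83 CPM), COL1A2 stood at 12.3 and 16.8 CPM and DCN at 161 and 153 CPM. The markers therefore did not show a gastric epithelial type, and the text refers to the cells by the name of the line. Leukocyte markers summed to 3.89 and 3.79 CPM, endothelial markers to 0.237 and 0.553 CPM and fibroblast markers, COL1A1 included, to 1288 and 1218 CPM. The red cell marker HBA1 was at 19.3 and 14.9 CPM, with no read of HBB.

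A set of 6 reference sequences from GENCODE release 29 (build GRCh38) shows the features of the mitochondrial genome that matter for the counts, closely packed genes and genes facing each other on opposite strands. The first 4 are tRNA genes beside MT-CO1, printed 5′ to 3′ with the anticodon in capitals, of which MT-TS1 and MT-TY had many reads and MT-TD and MT-TC had none.
MT-TS1 (serine UCN, chrM:7446-7514, minus strand): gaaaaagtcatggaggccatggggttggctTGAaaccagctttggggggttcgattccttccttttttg
MT-TY (tyrosine, chrM:5826-5891, minus strand): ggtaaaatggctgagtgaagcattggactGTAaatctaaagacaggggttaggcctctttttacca
MT-TD (aspartate, chrM:7518-7585, plus strand): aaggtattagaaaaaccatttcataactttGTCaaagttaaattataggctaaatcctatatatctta
MT-TC (cysteine, chrM:5761-5826, minus strand): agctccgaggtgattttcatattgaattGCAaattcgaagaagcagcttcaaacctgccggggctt

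The other 2 are the mRNAs whose level per library was lower with lncPSCA. In MT-ATP8, capitals mark the 46 bases it shares with the start of MT-ATP6, which are 22.2% of its length of 207 bases. Of MT-ND3 only the end is shown, and the capital marks the single base left after its last whole codon, part of a stop codon that the poly(A) tail completes.
MT-ATP8 (chrM:8366-8572, plus strand): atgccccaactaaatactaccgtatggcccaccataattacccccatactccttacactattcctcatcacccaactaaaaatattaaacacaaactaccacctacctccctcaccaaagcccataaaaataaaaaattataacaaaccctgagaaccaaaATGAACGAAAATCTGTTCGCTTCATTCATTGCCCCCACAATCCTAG
MT-ND3 (last 120 bases, chrM:10285-10404, plus strand): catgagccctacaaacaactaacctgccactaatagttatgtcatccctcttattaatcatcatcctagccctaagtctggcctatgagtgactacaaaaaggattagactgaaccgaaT

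Mitochondrial RNA took a larger share of the lncPSCA library. The 37 genes together had 307603 reads in control and 495689 in lncPSCA, or 1.43% (95% exact binomial interval 1.42 to 1.43) and 2.15% (2.15 to 2.16) of all counts. The 13 mRNAs had 225682 and 338385 reads. The 2 rRNAs had 78402 and 150893 reads, and the 22 tRNAs had 3519 and 6411. As a share of all counts the mRNAs were 1.40-fold higher (95% counting interval 1.40 to 1.41), the tRNAs 1.71-fold (1.64 to 1.78) and the rRNAs 1.80-fold (1.79 to 1.82). After TMM scaling, which sets libraries to a common level from the bulk of their genes, these folds were 1.35, 1.64 and 1.73. The tRNA fold is mostly that of 1 gene, MT-TS1, with 81.9% of tRNA reads in control and 80.6% in lncPSCA. Its reads cannot be told apart from heavy-strand RNA opposite to it. The 14 heavy-strand tRNAs together had 14 reads in control and 13 in lncPSCA. The intervals cover counting error only, and PCR copies of a molecule were not marked. In bulk RNA, a larger share of cells rich in mitochondrial RNA and more of this RNA per cell cannot be told apart. The library kit is not given in the sources used here, and neither is whether RNA was selected by its poly(A) tail.

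With TMM scaling, none of the 37 genes met the rule used to call a gene higher or lower. That rule asks for a mean of at least 1 CPM (measured genes), at least a 2-fold difference with a pseudocount of 1, and a counting interval wholly beyond 1.5-fold. Of the 37, 19 genes were measured: the 13 mRNAs, both rRNAs and 4 tRNAs. Over all 15440 measured genes, 3.02% met the rule as higher and 0.596% as lower. Below the rule, 11 of the 13 mRNAs had a log2 ratio of lncPSCA over control above 0, where 48.1% of all measured genes did. The same 11 had counting intervals wholly above 1, where 27.0% of all measured genes did, and the other 2 had intervals wholly below 1, where 32.1% did. The median log2 ratio of the mRNAs was 0.21, within a range from -0.98 to 0.86, and that of all measured genes was -0.02. Centring along mean expression raised the mRNA median to 0.36 and made 1 member higher, centring along transcript length gave 0.35 and 3 higher, and upper-quartile scaling or scaling to mitochondrial mRNA made 1 member lower. Most mitochondrial mRNAs are abundant, and among the 884 genes with a mean of at least 200 CPM the median was -0.15, with 27.4% above 0, and 23.1% had an interval wholly above 1 and 66.4% one wholly below.

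**Figure D1:**
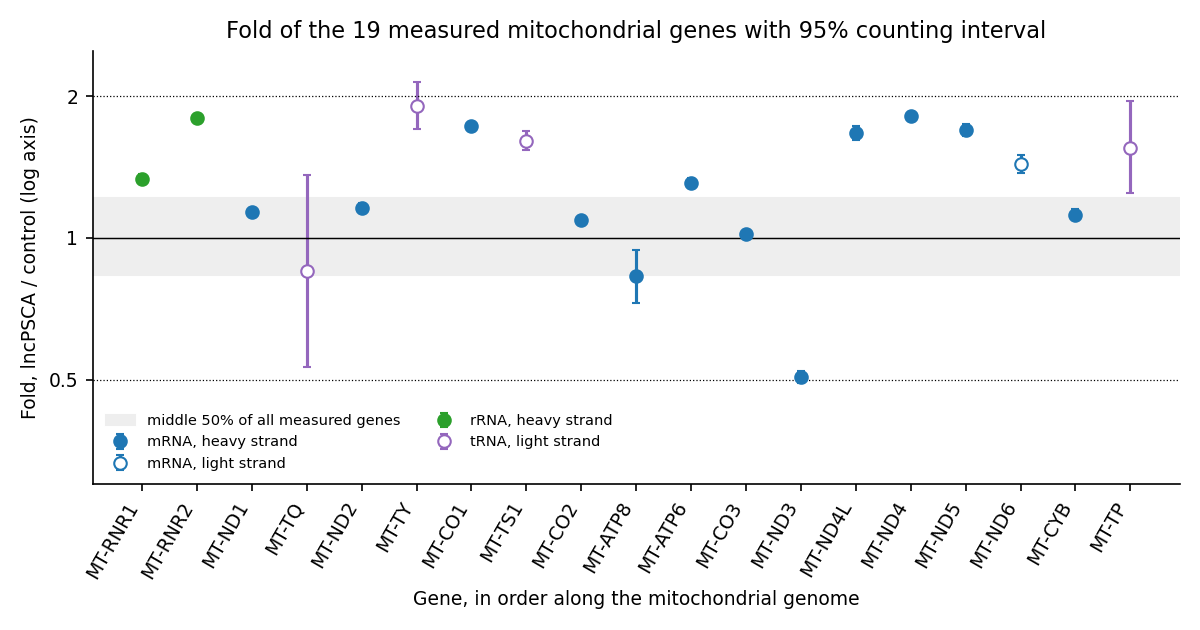
Fold of lncPSCA over control (log axis) for the 19 measured mitochondrial genes, in order along the genome, with 95% counting intervals from 1 library per group; dotted lines mark 2-fold. Most points lie between 1 and 2, MT-ND3 lies at 0.506, and the grey band holds the middle 50% of all measured genes.

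The 2 ribosomal RNAs, which form the core of the mitochondrial ribosome, did not move by the same amount. MT-RNR1, the 12S RNA of the small subunit, had 12398 reads in control and 18467 in lncPSCA, a fold of 1.34 (1.31 to 1.37). MT-RNR2, the 16S RNA of the large subunit, had 66004 and 132426 reads, a fold of 1.80 (1.78 to 1.82). MT-RNR2 had 5.32 reads for each read of MT-RNR1 in control and 7.17 in lncPSCA, so that their ratio was 1.35-fold higher (1.31 to 1.38). The genes lie next to each other near the start of the heavy-strand precursor. They are separated by the tRNA gene MT-TV, which borders both without a gap and had no reads. Reads of rRNA per read of mRNA went from 0.347 to 0.446, a 1.28-fold higher ratio (1.27 to 1.30) that does not depend on how the libraries were scaled.

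Of the 3 mRNAs for cytochrome c oxidase, complex IV, the first along the genome had a fold well above 1 and the other 2 had folds close to 1. MT-CO1, which encodes the catalytic subunit, had 65136 reads in control and 125709 in lncPSCA, or 3087 and 5347 CPM. Its fold was 1.73 (1.72 to 1.75). MT-CO2, the subunit that takes electrons from cytochrome c, had 35439 and 43050 reads, a fold of 1.09 (1.07 to 1.11). MT-CO3 had 30589 and 34702 reads, a fold of 1.02 (1.003 to 1.03). The libraries thus agreed closely in MT-CO3 while they differed in MT-CO1, and MT-CO3 reads per 100 MT-CO1 reads went from 47.0 to 27.6. The share of all mitochondrial mRNA reads that fell on MT-CO1 was 28.9% (28.7 to 29.05) in control and 37.1% (37.0 to 37.3) in lncPSCA. Without MT-CO1, the other 12 mRNAs together were 1.19-fold higher (1.18 to 1.20), against 1.35-fold with it.

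The 7 mRNAs for complex I, the NADH dehydrogenase, fell into distinct ranges. MT-ND4, a proton-pumping membrane subunit, had 18494 reads in control and 37417 in lncPSCA, a fold of 1.82 (1.78 to 1.85). MT-ND5, also a proton-pumping subunit, had 7163 and 13551 reads, a fold of 1.70 (1.65 to 1.75). MT-ND4L, which shares a mature mRNA with MT-ND4, had 4708 and 8767 reads, a fold of 1.67 (1.61 to 1.73). These 3 genes had the largest folds of complex I, and the intervals of MT-ND5 and MT-ND4L overlapped. MT-ND6, the light-strand mRNA, had 3245 and 5198 reads, a fold of 1.44 (1.38 to 1.502). MT-ND1 had 14309 and 18068 reads, a fold of 1.13 (1.11 to 1.16). MT-ND2 had 11773 and 15203 reads, a fold of 1.16 (1.13 to 1.19). The last 2 overlapped in their intervals and lie in the first part of the heavy-strand precursor, downstream of the rRNAs.

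MT-ND3 was the furthest below 1 of the 19 measured genes, among which MT-ATP8 and MT-TQ also had folds below 1. This short complex I mRNA had 13028 reads in control and 7350 in lncPSCA, or 617 and 313 CPM. It was 1.98-fold lower (1.92 to 2.03), and its log2 ratio of -0.98 fell short of the 2-fold limit. Of all measured genes, 0.997% had a lower log2 ratio. Its share of mitochondrial mRNA reads was 5.77% (5.68 to 5.87) in control and 2.17% (2.12 to 2.22) in lncPSCA. Its neighbours on the precursor, MT-CO3 before it and MT-ND4L after it, are separated from it only by the tRNA genes MT-TG and MT-TR, neither of which had a read. Both tRNA genes border these mRNAs without a gap, and how reads spanning neighbouring genes were assigned is not given. There were 0.426 MT-ND3 reads for each MT-CO3 read in control and 0.212 in lncPSCA, a 2.01-fold difference in the ratio. Against MT-ND4L, which was itself 1.67-fold higher in lncPSCA, there were 2.77 reads for each read in control and 0.838 in lncPSCA, a 3.30-fold difference. The call depended on the scaling, since MT-ND3 met the rule as lower under upper-quartile scaling (log2 ratio -1.01).

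Of the mRNAs of the remaining complexes, MT-CYB and MT-ATP6 were closer to the middle of the range, and MT-ATP8 lay below 1. MT-CYB, which encodes cytochrome b and is the only mitochondrial gene of complex III, had 10315 and 12876 reads, a fold of 1.12 (1.09 to 1.15), with an interval that overlapped those of MT-ND1 and MT-ND2. MT-ATP6, the proton-channel subunit of ATP synthase, had 11004 and 16052 reads, a fold of 1.31 (1.28 to 1.34). MT-ATP8, the smaller ATP synthase subunit, had 479 and 442 reads, a fold of 0.828 (0.726 to 0.944). MT-ATP8 and MT-ATP6 share 1 mature mRNA, but their read ratio was not constant: 4.35 MT-ATP8 reads per 100 MT-ATP6 reads in control and 2.75 in lncPSCA, lower by a factor of 0.633 (0.555 to 0.721). In the other shared mRNA, 25.5 and 23.4 MT-ND4L reads were counted per 100 MT-ND4 reads, a factor of 0.920 (0.885 to 0.958). The first pair overlaps by 46 bases and the second by 7. How reads in an overlap were assigned is not given, and the part of the overlap in these ratios was not tested.

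**Figure D2:**
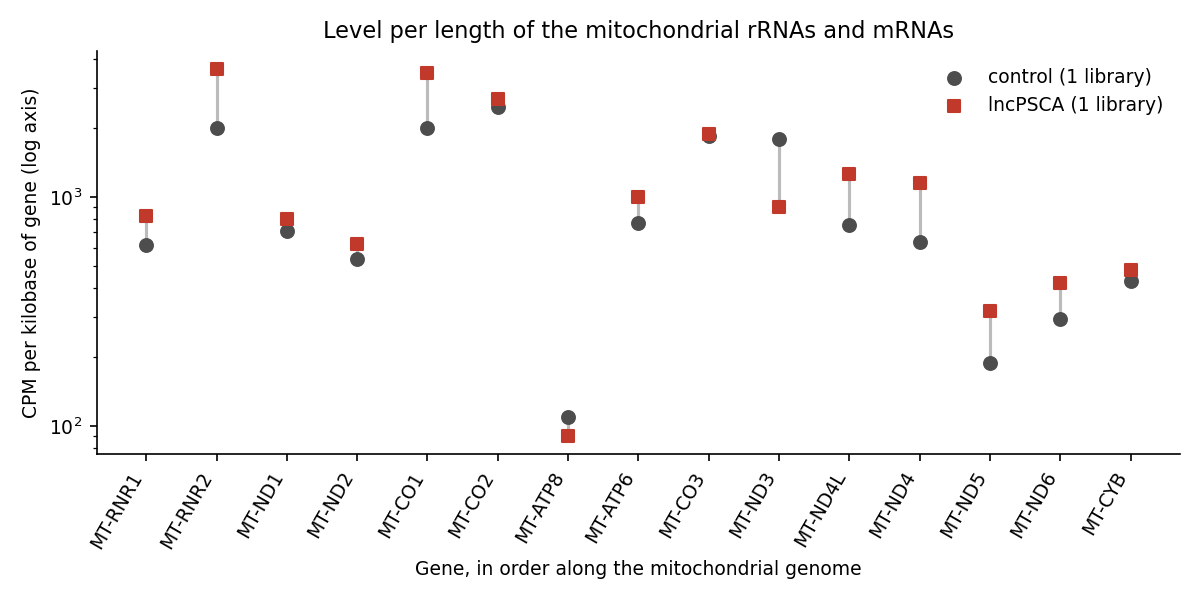
Level per length (CPM per kilobase of gene, log axis) of the 2 rRNAs and 13 mRNAs in order along the genome, with 1 point for each library. MT-RNR2 and MT-CO1 were the highest in lncPSCA, MT-ATP8 was the lowest in both libraries, and MT-ND3 is the only other gene whose lncPSCA point lies below control.

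Although the heavy-strand genes are transcribed together, their levels per length differed widely within a library. The mRNAs ran from 110 CPM per kilobase for MT-ATP8 to 2456 for MT-CO2 in control, a 22.4-fold range. In lncPSCA they ran from 90.8 for MT-ATP8 to 3468 for MT-CO1, a 38.2-fold range. Both ranges rest on MT-ATP8, which shares 1 mature mRNA with MT-ATP6. MT-ATP6 stood at 766 CPM per kilobase in control and 1003 in lncPSCA. Without MT-ATP8 the range would start at MT-ND5 and would not be wider in lncPSCA. MT-CO2 led the mRNAs in control, ahead of MT-CO1 (2002), MT-CO3 (1849) and MT-ND3 (1785). In lncPSCA the order was MT-CO1, MT-CO2 (2677), MT-CO3 (1883) and MT-ND4L (1256), and MT-ND3 stood at 904. The 3 complex IV mRNAs were thus among the 4 highest in both libraries. MT-ND5, the longest of the mRNAs, was the lowest after MT-ATP8, at 187 and 318 CPM per kilobase. Of all genes in the table, MT-RNR2 ranked 8th by CPM in control and 5th in lncPSCA, and MT-CO1 ranked 9th and 6th. These 2 genes took 42.6% of all mitochondrial reads in control and 52.1% in lncPSCA.

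Among the mRNAs, the log2 ratio tended to be larger in longer genes. The 3 genes over 1300 bases, MT-ND4, MT-CO1 and MT-ND5, had log2 ratios from 0.76 to 0.86. The 7 genes between 400 and 1300 bases ran from 0.03 to 0.52, and the 3 shortest ran from -0.98 (MT-ND3) to 0.74 (MT-ND4L). Spearman's correlation with gene length was 0.55 across the 13 mRNAs and 0.37 without MT-CO1 and MT-ND3. These genes come from 1 pair of libraries and are not independent replicates. Across all 14993 measured genes with a known transcript length the correlation was 0.236, and the part of length in the mitochondrial ratios was not tested. For the 12 heavy-strand mRNAs, the correlation of the log2 ratio with their order from the promoter was 0.14, and for all 13 mRNAs those with GC content and with mean CPM were 0.13 and 0.14.

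**Figure D3:**
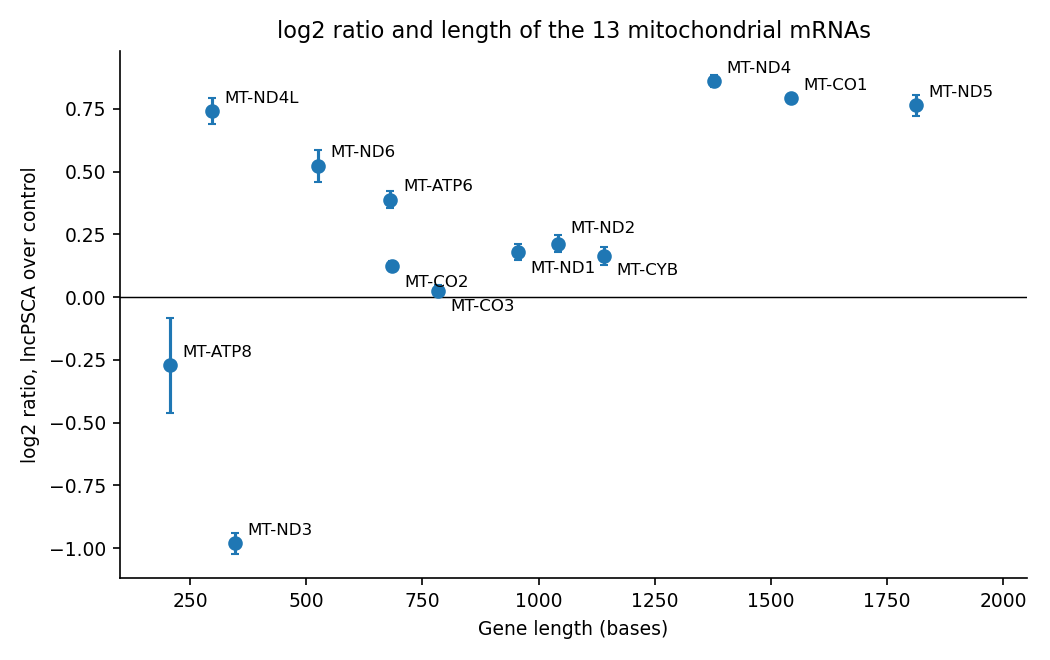
log2 ratio of lncPSCA over control against gene length in bases for the 13 mitochondrial mRNAs, with 95% counting intervals. The 3 longest genes lie between 0.76 and 0.86, and 2 of the 3 shortest, MT-ND3 and MT-ATP8, lie below 0.

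Reads on tRNA genes were nearly all on light-strand tRNAs. Of the 22 tRNA genes, which are 59 to 75 bases long, 12 had no read in either library. The 14 heavy-strand tRNAs together had 14 reads in control and 13 in lncPSCA: 10 had none, and the other 4 had at most 9 reads in a library. The 8 light-strand tRNAs had 3505 and 6398 reads, and only MT-TN and MT-TC had none. By counting error alone, a count of 0 allows up to 3 reads, or 0.142 CPM in control and 0.128 CPM in lncPSCA. MT-TV, MT-TG, MT-TR and MT-TH, all without reads, border genes of the same strand on both sides with 0 bases between. How reads that span neighbouring genes were assigned is not given, so a count of 0 does not bound the level of such tRNAs. MT-TS1, the serine tRNA whose sequence is given above, had 2881 reads in control and 5170 in lncPSCA, 81.9% and 80.6% of all tRNA reads. Its fold was 1.61 (1.54 to 1.69). MT-TY, the tyrosine tRNA, had 446 and 950 reads, a fold of 1.91 (1.71 to 2.14). MT-TP, the proline tRNA, had 128 and 222 reads, a fold of 1.56 (1.25 to 1.95). MT-TQ, the glutamine tRNA, had 40 and 38 reads (fold 0.853, 0.532 to 1.36), and MT-TE, the glutamate tRNA, had 7 and 14 reads and was not measured. MT-TS1, MT-TY and MT-TP were thus higher in lncPSCA beyond counting error, and for MT-TQ the libraries could not be told apart at this depth.

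**Figure D4:**
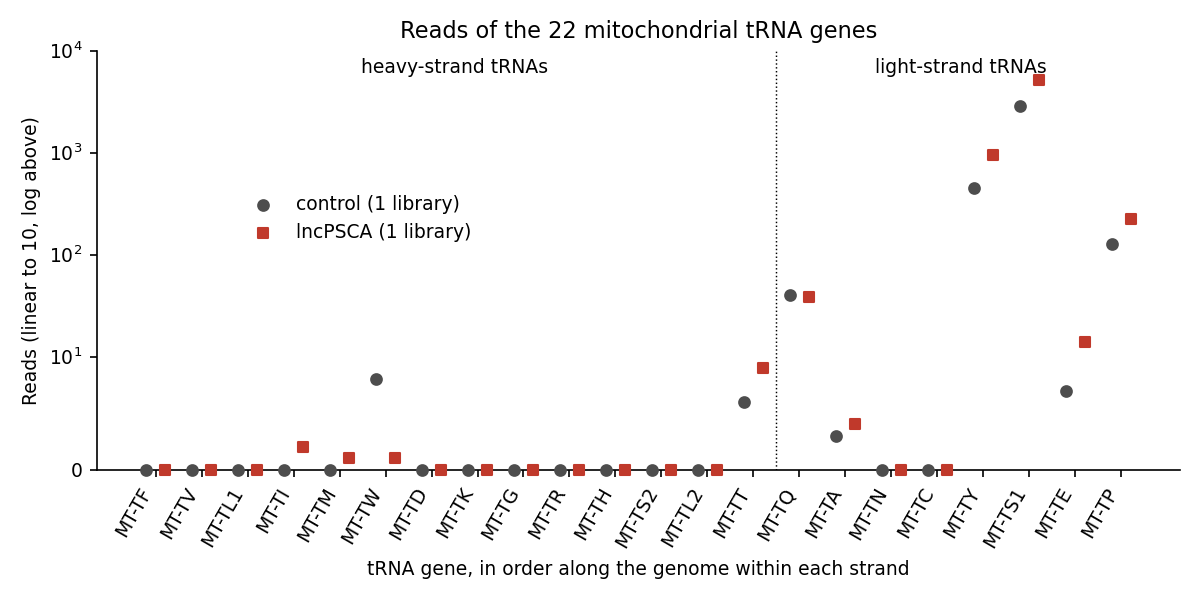
Reads of each of the 22 mitochondrial tRNA genes in both libraries (axis linear to 10 reads, logarithmic above), split by strand and in genome order within each strand. All tRNAs with 10 or more reads are on the light strand, led by MT-TS1 with 2881 and 5170 reads.

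The tRNAs with most reads flank MT-CO1 on the opposite strand. MT-TS1 borders the end of MT-CO1 with no base between them, and MT-TY lies 12 bases before its start. The mature MT-CO1 mRNA is known to run past its coding sequence across the stretch opposite MT-TS1. Per length, MT-TS1 stood at 1979 CPM per kilobase in control and 3187 in lncPSCA, and MT-CO1 at 2002 and 3468. There were 4.42 MT-TS1 reads per 100 MT-CO1 reads in control and 4.11 in lncPSCA, a factor of 0.930 (0.888 to 0.974). MT-TY was at 0.685 and 0.756 reads per 100 MT-CO1 reads, a factor of 1.10 (0.986 to 1.24). MT-TD, which follows MT-TS1 after 3 bases on the other strand, and MT-TC, which overlaps MT-TY by 1 base on the same strand, had no reads. Whether counting used strand is not given, so reads of a light-strand tRNA and of heavy-strand RNA opposite to it cannot be told apart.

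The same limit applies to MT-ND6 and to any comparison of the strands. The MT-ND5 mRNA is known to extend across the stretch opposite MT-ND6, whose gene borders the end of MT-ND5. MT-ND6 stood at 293 CPM per kilobase in control and 421 in lncPSCA, both above MT-ND5. Reads of MT-ND6 per read of MT-ND5 went from 0.453 to 0.384, a factor of 0.847 (0.804 to 0.892). Reads of the light-strand mRNA per 100 reads of heavy-strand mRNAs were 1.46 in control and 1.56 in lncPSCA, a factor of 1.07 (1.02 to 1.12). Over all 9 light-strand and 28 heavy-strand genes, the values were 2.24 and 2.40 per 100, also a factor of 1.07 (1.04 to 1.10). The summed strands as annotated thus differed by a factor of 1.07, and sums average over genes with unlike folds. MT-ND6 and MT-TS1 held most light-strand reads (5198 and 5170 of 11596 in lncPSCA), so these ratios did not test the output of each strand.

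The nuclear genome holds copies of mitochondrial genes that can share reads with them. Of 389 such genes in the table, 41 had a read and 4 were measured, none of which met the rule. MTATP6P1 had 1850 reads in control and 2458 in lncPSCA, MTND2P28 had 1803 and 2301, and MTCO1P12 had 968 and 1932. The next in abundance were MTND1P23 (21 and 27 reads), MTND4P12 (9 and 18) and MTCO3P12 (8 and 11). For the 3 abundant copies the fold was 1.79 (1.66 to 1.94) for MTCO1P12, 1.15 (1.08 to 1.22) for MTND2P28 and 1.19 (1.12 to 1.27) for MTATP6P1. MTCO1P12 had 1.49 reads per 100 MT-CO1 reads in control and 1.54 in lncPSCA, a factor of 1.03 (0.957 to 1.12). MTND2P28 had 15.3 and 15.1 per 100 MT-ND2 reads, a factor of 0.988 (0.925 to 1.06). MTATP6P1 had 16.8 and 15.3 per 100 MT-ATP6 reads, a factor of 0.911 (0.853 to 0.972), so its fold was smaller than that of MT-ATP6 beyond counting error. How reads that map to both were treated is not given, so the split between gene and copy is uncertain.

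The nuclear genes for the same complexes mostly had ratios below 1. Of 73 measured nuclear subunits of complexes I, III, IV and ATP synthase, none met the rule, 4 had a log2 ratio above 0 and the median was -0.28 (range -0.92 to 0.68). The upper end is NDUFV2, which had only 17 and 31 reads and a fold interval of 0.878 to 3.15. The median was -0.32 for the 36 genes of complex I (NDUFB9 from 2698 to 1979 CPM, NDUFS5 from 371 to 276), against 0.52 for its 7 mitochondrial mRNAs. These 7 ran from -0.98 to 0.86, and their median is the value of MT-ND6, whose reads cannot be told apart from heavy-strand RNA opposite to it. For complex III it was -0.24 (9 genes; CYC1 403 and 340 CPM, UQCRH 261 and 227) and for complex IV -0.24 (11 genes; COX4I1 410 and 358 CPM, NDUFA4 403 and 284). For ATP synthase it was -0.29 (17 genes; ATP5F1B 2430 and 2092 CPM, ATP5F1A 763 and 663). Complex II, succinate dehydrogenase, has no mitochondrial gene, and its 4 subunits had a median of -0.38 (SDHA 196 and 197 CPM, SDHC 127 and 94.9). In complex IV no nuclear subunit reached 0, and all 3 mitochondrial mRNAs lay above it. In ATP synthase no nuclear subunit reached 0 either, but 1 of its 2 mitochondrial mRNAs, MT-ATP8, was at -0.27. The mitochondrial medians were smaller outside complex I: 0.16 for complex III (1 gene), 0.12 for complex IV and 0.06 for ATP synthase. The medians of these lists were small shifts, and with TMM scaling no gene of the lists met the rule. Single genes were further below 0. SDHD of complex II stood at 64.7 CPM in control and 33.1 in lncPSCA (log2 ratio -0.97). In complex I, NDUFA5 was at -0.92 and NDUFB5 at -0.91. SDHD, NDUFA5 and NDUFB5 were named after their values were seen. The median of genes of at least 200 CPM was itself -0.15.

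**Figure D5:**
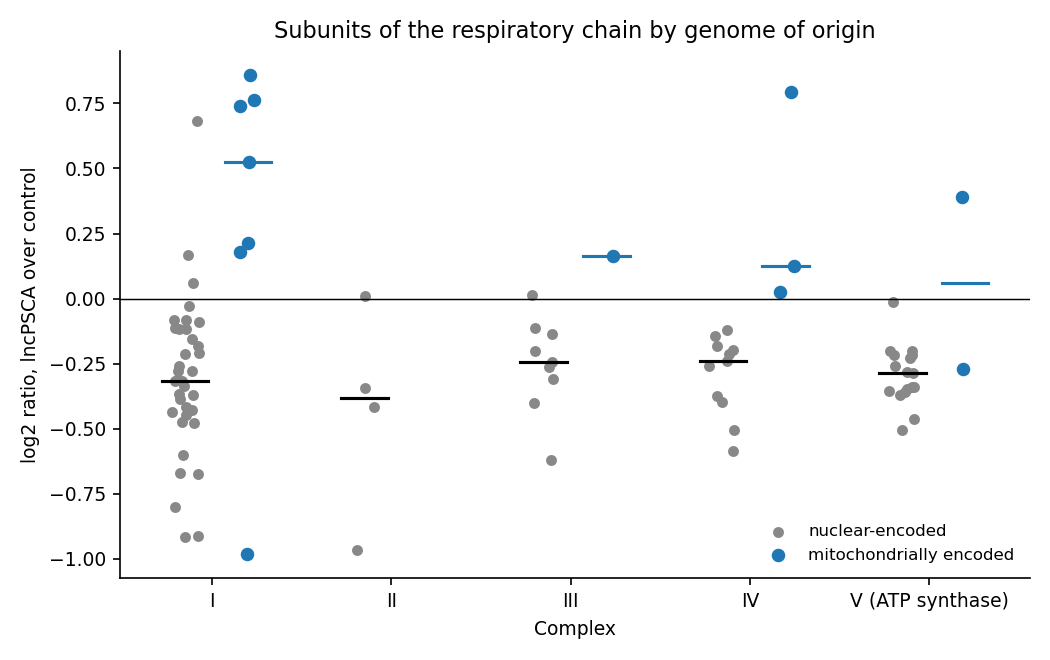
log2 ratio of lncPSCA over control for each measured nuclear subunit (grey) and mitochondrially encoded subunit (blue) of the respiratory complexes, with a bar at each median. Nuclear medians lie between -0.38 and -0.24, and 11 of the 13 mitochondrial points lie above 0.

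Of 97 measured nuclear genes that serve the mitochondrial genome, 2 (2.06%) were higher by the rule and none was lower, near the 3.02% and 0.596% of all measured genes. Of 42 measured genes for mitochondrial RNA processing, stability and decay, 1 was higher and none was lower, with a median log2 ratio of -0.19. The higher gene was PNPT1, which encodes polynucleotide phosphorylase, an RNA-degrading enzyme that is also known as an interferon-induced gene. PNPT1 had 1764 reads in control and 6730 in lncPSCA, a fold of 3.42 (3.25 to 3.61). Its helicase partner SUPV3L1 was at 58.3 and 48.8 CPM. LRPPRC, which stabilises mitochondrial mRNAs, was the most abundant of the list in lncPSCA at 201 CPM in control and 301 in lncPSCA, or 1.496-fold higher (1.44 to 1.55). Its partner SLIRP was at 175 and 134 CPM. Except for PNPT1 these genes were chosen after their values were seen.

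Of 15 measured genes for mitochondrial transcription and its regulation, none met the rule and the median was -0.26. The most abundant by reads summed over both libraries were the coactivator gene PPRC1 (283 and 283 CPM) and the nuclear receptor gene ESRRA (169 and 147 CPM). The core machinery, named after its values were seen, comprised POLRMT, the RNA polymerase (152 and 159 CPM), TFAM, which packages mitochondrial DNA and activates its promoters (68.3 and 41.6 CPM, fold 0.610, 0.562 to 0.662), and the initiation factor TFB2M (62.2 and 39.8 CPM, fold 0.639, 0.587 to 0.696). Among 22 genes for mitochondrial DNA maintenance, TYMP, a thymidine phosphorylase, was higher with 38 and 110 reads (fold 2.598, 1.78 to 3.86), none was lower and the median was -0.05. TYMP was not measured with a minimum of 5 CPM. The 18 genes for mitochondrial translation factors had a median of -0.22, and none met the rule (TUFM 442 and 442 CPM, OXA1L 110 and 111 CPM).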

How the data were processed

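RNA of 1 control and 1 lncPSCA library was measured. The authors deposited raw read counts per Ensembl gene for both. Per the submitters' processing notes the tools were TopHat2 and HTSeq and the build hg19; versions, settings, strand use and annotation were not given in the sources used here. Symbols came from an identifier table that matched 52181 genes (81.9%), among them all 37 MT- genes. Gene lengths, neighbours, strands and sequences came from GENCODE release 29 (GRCh38), matched by gene identifier. Libraries (21552098 and 23016646 counts) were scaled by TMM (edgeR 4.0.16). The log2 ratio used a pseudocount of 1, and folds are ratios of CPM. Fold intervals are exact 95% intervals (Clopper-Pearson, scipy 1.17.1), and intervals of ratios between genes are Wald intervals on the log scale. With 1 library per group no test was made. The size rule was tried on simulated counts that held counting error only. They held no variation between cultures or libraries, so they cannot show how the rule behaves under it.

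Members and lists were chosen with earlier results of these data known. All mRNAs and rRNAs are named, tRNAs with at least 10 reads in 1 library, in each nuclear list the members that met the rule (at most 4) or else the 2 most abundant, and the 6 nuclear copies with most reads. In the RNA processing list, 42 of 43 genes were matched. Alternatives tried were scaling by DESeq2 1.42.0, total counts, upper-quartile scaling, TMM without mitochondrial genes, scaling to mitochondrial mRNA, centring along mean expression or transcript length (running median of 501 genes), a pseudocount of 5, and a CPM minimum of 5 or none.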

Additional observations from a re-analysis of the deposited data

How the results depend on the processing

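Each group has 1 library, so no library could be left out. No paired analysis was possible because each group has 1 library and no test was made. MT-ND3 and MT-ATP8 had a log2 ratio below 0 under every setting run, from -1.41 to -0.84 and from -0.70 to -0.13, and MT-CO1, MT-ND4, MT-ND4L, MT-ND5, MT-ND6, MT-RNR2, MT-TS1, MT-TY and MT-TP stayed above 0. No member met the rule as higher in the reported fit; 1 did with centring along mean expression (MT-ND4, log2 ratio 1.01) and 3 did with centring along length (MT-ND4 1.001, MT-RNR2 1.003, MT-TY 1.06). Under upper-quartile scaling 1 was lower (MT-ND3). DESeq2 size factors, total counts, TMM without mitochondrial genes, the pseudocount of 5 and both other CPM minimums left 11 mRNAs above 0 and no member called. The median of the mRNAs was 0.27 with total counts, 0.36 centred along mean expression and 0.35 centred along length. With both libraries scaled to their mitochondrial mRNA, which sets the summed mRNA ratio to 1 by construction, 5 mRNAs lay above 0, MT-ND3 met the rule (-1.41), and MT-ATP6 (-0.040), MT-CO2 (-0.30), MT-CO3 (-0.40), MT-CYB (-0.26), MT-ND1 (-0.25), MT-ND2 (-0.22) and MT-RNR1 (-0.0095) turned negative; this shifted the median of all measured genes by -0.43. On TMM-scaled counts the folds of the summed shares were 1.35 for mRNAs, 1.73 for rRNAs, 1.64 for tRNAs, 1.44 for heavy-strand genes (1.51 as a share of all counts) and 1.54 for light-strand genes (1.61 as a share). Of all measured genes, 150 were lower without a CPM minimum (92 in the reported fit), and 284 were higher (467) and 46 lower with a minimum of 5 CPM, under which 1 nuclear list gene was higher in place of 2 (fewer genes were tested, and TYMP fell below the minimum). Centred along length, 1 nuclear list gene was lower, and the median of the DNA maintenance list turned positive (0.013), as it did with total counts (0.0082); the cause was not tested. Low counts limited the tRNAs: apart from MT-TS1, MT-TY and MT-TP, none had more than 40 reads.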
